A study of Peromyscus leucopus and Peromyscus maniculatus with 24 samples.

Results

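The genes described here are nuclear genes of the respiratory chain and of the ATP synthase, called subunit genes below. They were taken by symbol: the rows named NDUFA, NDUFB, NDUFC, NDUFS or NDUFV with a number, SDHA to SDHD, UQCR genes, CYC1, COX4 to COX8 genes and ATP5 genes. This gave 60 of 25252 named genes in the table of P. leucopus and 64 of 16899 in that of P. maniculatus, with 44 genes in both tables and 80 distinct genes in all. In P. leucopus they were 36 genes of complex I, 4 of complex II, 18 of complex V and the pair NDUFA4 and NDUFA4L2. In P. maniculatus they were 31 genes of complex I, 4 of complex II, 6 of complex III, 13 of complex IV, 8 of complex V and the same pair. The symbols also took in ATP5IF1, an inhibitor counted in complex V of P. leucopus. COX7A2L, a supercomplex factor, is counted in complex IV of P. maniculatus. Complexes III and IV of P. leucopus, and the subunits encoded by the mitochondrial genome, were not analysed here.

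Oxidative phosphorylation turns the energy of reduced cofactors into ATP in the inner membrane of mitochondria. Complex I oxidises NADH and complex II oxidises succinate, and both pass electrons through ubiquinone to complex III, cytochrome c and complex IV, where oxygen is reduced to water. Complexes I, III and IV pump protons, and the ATP synthase, complex V, lets the protons flow back and makes ATP. Most subunits are encoded in the nucleus and are assembled with a few that are encoded in mitochondrial DNA. Neurons draw most of their ATP from this pathway, since restoring ion gradients after signalling is costly.

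Brain RNA came from outbred deer mice of closed colonies, kept as the LL stock of P. leucopus and the BW stock of P. maniculatus bairdii. Each group held 6 animals and each animal 1 library. Young animals were 7 months of age, old P. leucopus 28 months and old P. maniculatus 25 to 29 months, and the labels name no engineered allele and no agent. The deposited values are estimated read counts per gene, in which a read shared by several genes was split among them. A level is given here as CPM, the counts of a gene scaled to 1e6 counts on named genes. The 2 tables rest on different genomes and gene models, so levels were not compared between the species.

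The libraries held 5766964 to 19461818 counts on named genes. All carried the neuronal gene SNAP25 at high levels, 2325 to 4165 CPM in P. leucopus and 1678 to 3514 CPM in P. maniculatus. Some libraries stood apart. The summed level of 6 oligodendrocyte markers was 14908 to 19768 CPM in young P. leucopus 1 to 4, against 6466 and 5194 CPM in young P. leucopus 5 and 6 and 2678 to 7513 CPM in the old animals. The 5 markers of cerebellar granule cells summed to 3072 and 2161 CPM in old P. leucopus 4 and 6, against 47.5 CPM in the median old animal of that species, and to 1946 CPM in young P. maniculatus 3. Choroid plexus markers reached 9847 CPM in young P. leucopus 3, where the median of that group was 639 CPM. Old P. maniculatus 3 and 4 had nearly identical counts, with a chi-square per gene of 1.46 against 8.82 to 99.8 in the 65 other pairs of that species. They were kept as 2 animals as labelled, and the age comparison was repeated without both.

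In young P. leucopus the 60 genes took 1.17% ± 0.174 of the counts on named genes (SD, n = 6), and in old P. leucopus 1.05% ± 0.121 (n = 6). In young P. maniculatus the 64 genes took 2.13% ± 0.265 (n = 6), and in old P. maniculatus 2.35% ± 0.221 (n = 6). The old-to-young ratio of these shares was 0.896 for P. leucopus and 1.10 for P. maniculatus. In both species the age groups overlapped: the shares ran from 0.963% to 1.44% in young and from 0.904% to 1.20% in old P. leucopus, and from 1.85% to 2.54% in young and from 2.11% to 2.66% in old P. maniculatus. A share of a bulk library does not tell fewer cells rich in a transcript from less transcript per cell.

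**Figure D1:**
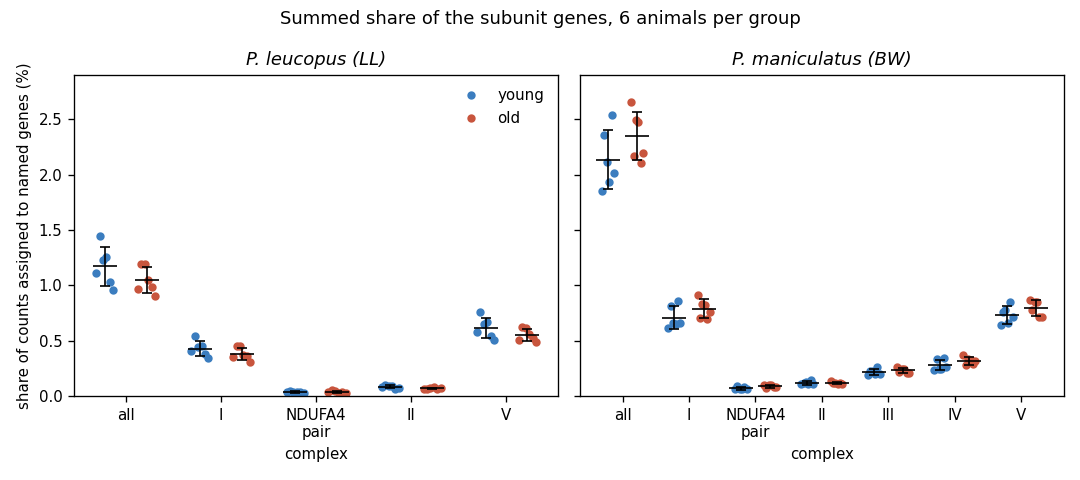
Share of the counts on named genes, in percent, taken by the subunit genes of each complex, for P. leucopus (left) and P. maniculatus (right). Points are animals, bars are the mean ± SD of 6 animals, and young (blue) and old (red) ranges overlap in every complex.

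The share of a complex depends on which of its subunits the table names. In P. leucopus complex V was above complex I in 12 of 12 libraries, and in P. maniculatus, with 8 named genes of complex V, in 8 of 12. In P. leucopus complex V took 0.619% ± 0.0916 in young and 0.554% ± 0.0575 in old animals, complex I took 0.429% ± 0.0677 and 0.383% ± 0.0560, and complex II took 0.0849% ± 0.0132 and 0.0722% ± 0.00647 (n = 6 each). In P. maniculatus complex V took 0.733% ± 0.0775 in young and 0.796% ± 0.0726 in old animals, and complex I took 0.710% ± 0.101 and 0.789% ± 0.0839. Complex IV took 0.280% ± 0.0474 and 0.320% ± 0.0338, complex III 0.219% ± 0.0291 and 0.234% ± 0.0241, and complex II 0.120% ± 0.0146 and 0.119% ± 0.00786. The old-to-young ratios of the complexes lay between 0.851 (complex II) and 0.895 (complex V) in P. leucopus, and between 0.991 (complex II) and 1.14 (complex IV) in P. maniculatus. The NDUFA4 pair stood outside these ranges, with ratios of 1.03 in P. leucopus and 1.24 in P. maniculatus.

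Per kilobase of gene model, the genes of 1 species differed widely in level. In P. maniculatus NDUFA4, a small protein named for complex I and found with complex IV, led with 3243 CPM per kb. It was followed by COX8A at 2350, COX7C at 2328, ATP5B, the catalytic beta subunit of the ATP synthase, at 2015, and COX4I1, a large nuclear subunit of complex IV, at 1995 CPM per kb. The highest gene of complex I was NDUFV2, an iron-sulfur subunit of the NADH-oxidising arm, at 1235 CPM per kb. That of complex II was SDHB, its iron-sulfur subunit, at 388 CPM per kb, and that of complex III was UQCR10, a small accessory subunit, at 697 CPM per kb. In P. leucopus the catalytic beta subunit, named ATP5F1B there, led with 985 CPM per kb, and NDUFA4 followed with 760 CPM per kb. NDUFB8, an accessory subunit of the membrane arm, was highest in complex I at 416 CPM per kb, and SDHB was highest in complex II at 141 CPM per kb.

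Old and young animals of each species were compared with edgeR's quasi-likelihood test on all genes, with Benjamini-Hochberg adjustment over all genes tested and a threshold of 0.05 on the adjusted p. Fold changes are old over young on the log2 scale. In P. leucopus 0 of 60 subunit genes passed, with 0.0% of 14816 genes tested called, and the lowest adjusted p of a subunit gene was 0.196. At an unadjusted p under 0.05 there were 6 subunit genes, 5 of them with lower and 1 with higher values in old animals, where 10.4% of all genes tested were lower at that level. DESeq2 also called 0 of the 60, and 910 of 21216 genes with counts. Most of the small differences pointed the same way: 50 of 60 log2 fold changes were below 0, with a median of -0.13, and the median over all genes tested was 0.02.

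Complex I of P. leucopus had log2 fold changes from -0.31 to 0.16 with a median of -0.12, and 30 of 36 were below 0. The 7 core subunits, which carry the flavin, the iron-sulfur clusters and the quinone site, were all below 0 with a median of -0.22, and 23 of the 29 accessory subunits were below 0 with a median of -0.09. The lowest was NDUFB11, an accessory subunit of the membrane arm encoded on the X chromosome of P. maniculatus. It measured 70.1, 99.5 and 117 CPM in young animals (lowest, median and highest) and 62.8, 73.7 and 87.9 CPM in old ones, a log2 fold change of -0.31 ± 0.14 (SE, edgeR adjusted p = 0.254). Its level was above 95 CPM in young 1 to 4 and near 70 CPM in young 5 and 6, which lay inside the range of the old animals. The highest was NDUFV3, an accessory subunit of the NADH-oxidising arm, at 49.8, 51.9 and 60.2 CPM in young and 52.7, 55.1 and 65.8 CPM in old animals. Its log2 fold change was 0.16 ± 0.09 (edgeR adjusted p = 0.347), and old 2 and 3 were the only animals above the young range. NDUFB8 measured 239, 292 and 383 CPM in young and 200, 263 and 360 CPM in old animals, with a log2 fold change of -0.06 ± 0.17.

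All 4 genes of complex II, the succinate dehydrogenase that also serves the citric acid cycle, had values below 0 in P. leucopus, with a median of -0.15. SDHA, the flavoprotein that oxidises succinate, measured 334, 461 and 535 CPM in young and 319, 350 and 442 CPM in old animals, a log2 fold change of -0.26 ± 0.12 (edgeR adjusted p = 0.249). The 4 young animals with high oligodendrocyte markers held SDHA at 432 CPM or more, and only old 4 reached that level. SDHB had the value nearest to 0, -0.11 ± 0.12.

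In complex V of P. leucopus 15 of 18 genes had a log2 fold change below 0, with a median of -0.13. The extremes were ATP5PB and ATP5MC2. ATP5PB, part of the peripheral stalk, measured 230, 316 and 383 CPM in young and 204, 236 and 273 CPM in old animals, a log2 fold change of -0.32 ± 0.12 (edgeR adjusted p = 0.200). ATP5MC2, one of the genes that encode the c subunit of the membrane rotor, measured 96.6, 102 and 120 CPM in young and 100.96, 124 and 148 CPM in old animals, a log2 fold change of 0.30 ± 0.12 (edgeR adjusted p = 0.196). It was the one subunit gene with higher values in old P. leucopus at an unadjusted p under 0.05, and all old animals but old 6 lay above every young animal. The other genes of the c subunit, whose mature proteins are the same, differed in sign: ATP5MC1 had a log2 fold change of -0.21 and ATP5MC3 of -0.25. ATP5F1B, the most abundant subunit gene, measured 1552, 1812 and 2189 CPM in young and 1445, 1620 and 1769 CPM in old animals, with a log2 fold change of -0.14 ± 0.10.

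The values in P. leucopus moved with the oligodendrocyte markers. All 6 of these markers had log2 fold changes below 0, with a median of -1.52, and none passed the adjusted threshold in edgeR. Within an age group, Pearson's R over 6 animals between a subunit gene and an oligodendrocyte marker averaged 0.73 in young and 0.72 in old P. leucopus. Of the other cell types, neuron markers had medians of 0.35 in P. leucopus and -0.17 in P. maniculatus, astrocyte markers of 0.01 and -0.06, and microglia markers of 0.59 and 0.52. Choroid plexus markers had a median of -1.96 with 5 of 5 below 0 in P. leucopus and of 0.64 with 5 of 6 above 0 in P. maniculatus, the directions of the subunit genes in both species. Cerebellar granule cell markers had medians of 3.48 and -1.74, and none of these markers passed the adjusted threshold in edgeR. Without the 4 young libraries with high oligodendrocyte markers, which leaves 2 young animals, the median log2 fold change of the 60 genes was 0.06 in place of -0.13 and 10 genes were below 0 in place of 50. NDUFB11, SDHB and ATP5F1B then had values of 0.03, 0.13 and 0.00. The young animals left, 5 and 6, also held the lowest young shares of the subunit genes, 1.03% and 0.963%. Young 1 to 4 held 1.11% to 1.44%, so leaving them out raises these values whatever their markers. Without the old libraries with cerebellar markers the median was -0.03, with 35 genes below 0. The part of these cell types in the age difference was not tested.

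In P. maniculatus the edgeR test called 0 of 59 subunit genes, with 0.0% of 12384 genes tested called, and the lowest adjusted p was 0.467. The filter on low counts left out COX6A2, COX6B2, COX7B2, COX8B and COX8C. At an unadjusted p under 0.05 there were 7 subunit genes, all with higher values in old animals, where 4.94% of all genes tested were higher at that level. DESeq2 called 0 of 64 subunit genes and 22 of 15776 genes with counts. The direction was opposite to that in P. leucopus: 57 of 59 log2 fold changes were above 0, with a median of 0.23, and the median over all genes tested was 0.00. In neither species was there a subunit gene whose age groups did not overlap, against 0.85% of all genes tested in P. leucopus and 0.38% in P. maniculatus.

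**Figure D2:**
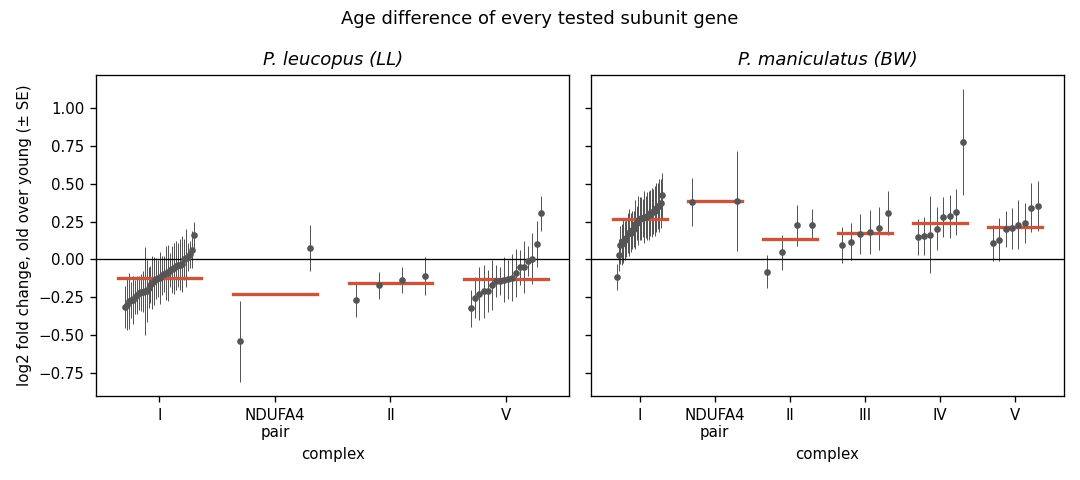
Log2 fold change of every tested subunit gene, old over young, by complex in P. leucopus (left, 60 genes) and P. maniculatus (right, 59 genes). Points are genes ± SE from edgeR and red lines are medians, which lie below 0 in every complex of P. leucopus and above 0 in every complex of P. maniculatus.

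Complex I of P. maniculatus had 30 of 31 values above 0, with a median of 0.27 and a range from -0.12 to 0.42. The exception was NDUFS1, the largest core iron-sulfur subunit, whose gene model lies at chr13:48435968-48466309 in HU_Pman_2.1. It measured 397, 442 and 473 CPM in young and 355, 398 and 428 CPM in old animals, a log2 fold change of -0.12 ± 0.09 (edgeR adjusted p = 0.543). The highest was again NDUFV3, at chr21:8822993-8834147, with 111, 131 and 152 CPM in young and 139, 162 and 199 CPM in old animals. Its log2 fold change was 0.42 ± 0.15 (edgeR adjusted p = 0.467). Old 1 and the near-identical old 3 and 4 lay above every young animal. NDUFV2 measured 825, 925 and 1218 CPM in young and 911, 1063 and 1224 CPM in old animals, with a log2 fold change of 0.17 ± 0.13.

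Of the NDUFA4 pair, NDUFA4 (chr3:13143263-13151239) measured 611, 664 and 959 CPM in young and 698, 919 and 1015 CPM in old P. maniculatus, a log2 fold change of 0.38 ± 0.16 (edgeR adjusted p = 0.467). Young 2 at 959 CPM and young 5 at 782 CPM lay inside the old range, and the other young animals lay below it. In P. leucopus NDUFA4 measured 335, 364 and 491 CPM in young and 313, 381 and 532 CPM in old animals, a log2 fold change of 0.08 ± 0.15.

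Complex II of P. maniculatus had a median of 0.14, with SDHA lowest at -0.08 ± 0.11 and SDHD highest at 0.23 ± 0.10. SDHD, a membrane anchor of the complex at chr7:45570786-45580515, measured 64.0, 82.4 and 89.3 CPM in young and 82.2, 90.4 and 100 CPM in old animals (edgeR adjusted p = 0.467). SDHA, at chr15:111552-138903, measured 552, 593 and 744 CPM in young and 519, 569 and 631 CPM in old animals. SDHA had the lowest value of complex II in both species.

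All 6 genes of complex III had values above 0, from 0.10 ± 0.12 for UQCRC2, a core protein, to 0.31 ± 0.15 for UQCR10, with a median of 0.18. UQCR10 measured 96.0, 98.6 and 142 CPM in young and 111, 129 and 164 CPM in old animals (edgeR adjusted p = 0.467). The old and young ranges of UQCR10 overlapped.

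The 8 tested genes of complex IV, where oxygen is reduced, all had values above 0, with a median of 0.24. COX4I1, at chr5:49564589-49569697, measured 779, 851 and 1135 CPM in young and 932, 1115 and 1279 CPM in old animals, a log2 fold change of 0.31 ± 0.15 (edgeR adjusted p = 0.467). COX8A, at chr1:140431688-140434191, was the lowest at 0.15 ± 0.12, with 415, 465 and 562 CPM in young and 460, 509 and 571 CPM in old animals. COX7A1, the isoform of heart and skeletal muscle, was the highest at 0.77 ± 0.35 (edgeR adjusted p = 0.467), but at a level of only 0.808, 1.62 and 2.97 CPM in young and 1.91, 2.77 and 3.72 CPM in old animals. COX6B1 measured 361, 386 and 577 CPM in young and 426, 509 and 588 CPM in old animals, with a log2 fold change of 0.28 ± 0.14.

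All 8 genes of complex V in P. maniculatus had values above 0, with a median of 0.22. ATP5D, the delta subunit of the catalytic head, was highest at 0.35 ± 0.17 (edgeR adjusted p = 0.467), with 302, 342 and 456 CPM in young and 348, 454 and 521 CPM in old animals. ATP5A1, the alpha subunit, was lowest at 0.11 ± 0.12, with 2145, 2299 and 2612 CPM in young and 2172, 2532 and 2652 CPM in old animals. ATP5B, at chr18:45365299-45371814, measured 2574, 3061 and 3535 CPM in young and 2912, 3413 and 3686 CPM in old animals, a log2 fold change of 0.21 ± 0.14.

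The size of these values in P. maniculatus went with the length of the gene model. Genes outside the respiratory chain had median log2 fold changes of 0.15 up to 300 bases, 0.15 from 300 to 600, 0.07 from 600 to 1200 and -0.06 above 1200 bases. The subunit genes in the same bins had medians of 0.29, 0.24, 0.20 and 0.11, with 14, 27, 9 and 9 genes. In P. leucopus the subunit genes had medians of -0.09, -0.13 and -0.19 in the bins from 300 bases upward, where other genes had 0.03, -0.02 and 0.02. The rank correlation between length and log2 fold change over the subunit genes was -0.28 for P. leucopus and -0.40 for P. maniculatus, a description across genes that share their libraries. The part of length in the age difference was not tested.

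Leaving out both near-identical old libraries of P. maniculatus gave a median of 0.12, with 56 of 59 values above 0 and 0 subunit genes at an unadjusted p under 0.05. Counting them as 1 animal gave a median of 0.20 and 1 such gene. The scalings by RLE size factors and by library totals gave medians of 0.22 and 0.16 in P. maniculatus and -0.13 and -0.16 in P. leucopus, so no scaling turned the direction in either species. Over all alternatives except single animals left out, NDUFV3, NDUFA4, COX4I1 and ATP5D of P. maniculatus fell to 0.205, 0.206, 0.158 and 0.151 at the lowest. SDHD and UQCR10 fell to 0.171 and 0.234.

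The difference of the age effect between species was tested on the 44 subunit genes present in both tables, as the effect in P. leucopus minus that in P. maniculatus in an edgeR fit over all 24 libraries. In this comparison 0.0% of 11667 genes and 0 of 44 subunit genes passed the adjusted threshold, and the lowest adjusted p was 0.226, for SDHD. At an unadjusted p under 0.05 there were 12 subunit genes, all with a lower effect in P. leucopus, where 7.31% of all genes tested were lower at that level. All 44 differences were below 0, with a median of -0.35, from -0.93 ± 0.44 for NDUFA4L2 to -0.14 ± 0.13 for NDUFS1, and the median over all genes tested was 0.01. By complex the medians were -0.37 over 30 genes of complex I, -0.28 over 4 genes of complex II and -0.30 over 8 genes of complex V. In 35 of the 44 genes the effect was below 0 in P. leucopus and above 0 in P. maniculatus, in 7 it was above 0 in both and in 2, NDUFS1 and SDHA, below 0 in both. Without the 4 young P. leucopus libraries with high oligodendrocyte markers the median was -0.14 and 38 of 44 were below 0. These libraries also held the highest young shares of the subunit genes.

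**Figure D3:**
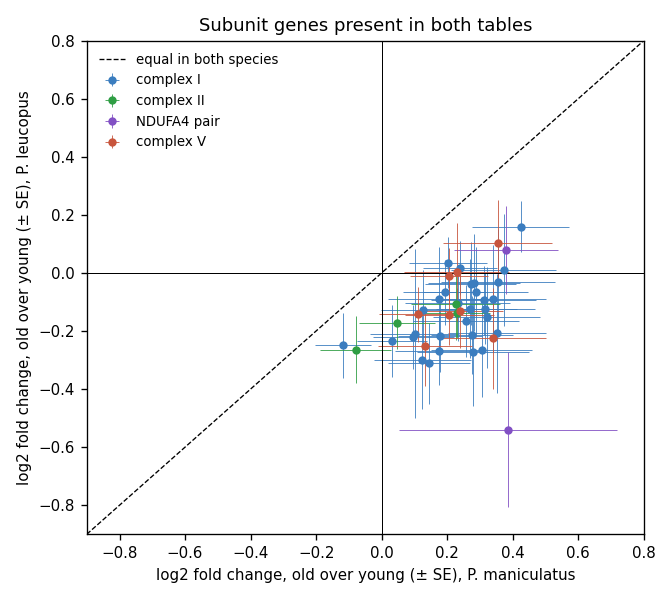
Log2 fold change of old over young in P. leucopus (vertical axis) against P. maniculatus (horizontal axis) for the 44 subunit genes in both tables, coloured by complex, with SE from edgeR. All 44 points lie below the dashed line of equal values in both species.

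Single libraries set the level of most subunit genes at once. In young P. leucopus, animal 2 held the highest level of 53 of the 60 genes and animal 6 the lowest of 46. In old P. leucopus, animals 2 and 3 held the highest level of 25 and 29 genes and animal 6, one of the libraries with cerebellar markers, the lowest of 40. In young P. maniculatus, animals 5 and 2 were highest in 37 and 18 of 59 genes and animal 1 lowest in 31, and in old P. maniculatus animal 1 was highest in 48. Without young animal 2 the median log2 fold change in P. leucopus was -0.04 with 38 genes below 0, and over all animals left out in turn it ran from -0.18 to -0.04. In P. maniculatus it ran from 0.19 to 0.30.

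**Figure D4:**
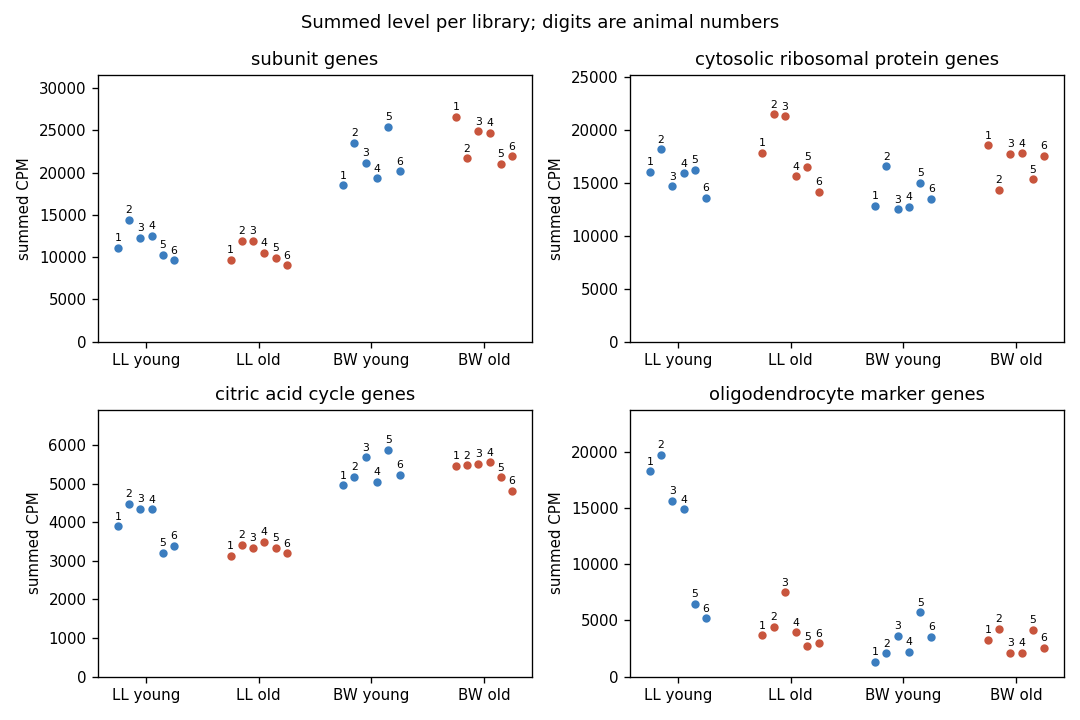
Summed CPM of the subunit genes, the cytosolic ribosomal protein genes, the citric acid cycle genes and the oligodendrocyte markers in each library, with animal numbers beside the points. Young P. leucopus 1 to 4 stand above the other libraries of that species in oligodendrocyte markers, and young P. leucopus 2 is the highest library of its species in the subunit genes.

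The common behaviour was also seen in Pearson's R between pairs of subunit genes over the 6 animals of a group. The mean R was 0.74 in young and 0.65 in old P. leucopus and 0.68 in young and 0.61 in old P. maniculatus, where the mean over pairs of all genes tested was 0.03, 0.02, 0.00 and 0.06. Within the cytosolic ribosomal protein genes R averaged 0.66 and 0.79 in young and old P. leucopus, and 0.74 and 0.79 in P. maniculatus. In the same order it averaged 0.97, 0.95, 0.96 and 0.86 within the oligodendrocyte markers. It was 0.57, 0.39, 0.50 and 0.46 within the mitochondrial ribosome and 0.60, 0.18, 0.25 and 0.06 within the citric acid cycle. The subunit genes were also correlated with the cytosolic ribosomal protein genes, with means of 0.55 and 0.67 in young and old P. leucopus and 0.63 and 0.59 in P. maniculatus. With the citric acid cycle the mean was 0.58 in young and 0.14 in old P. leucopus, and 0.25 and 0.10 in P. maniculatus. With the oligodendrocyte markers it was 0.44 in young and -0.26 in old P. maniculatus, in contrast to the values above 0.7 in P. leucopus. These R values describe 6 animals that share library preparation and scaling.

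Other gene groups of mitochondria and translation were set beside the subunit genes. All 18 genes of the citric acid cycle, which feeds electrons to complexes I and II, had log2 fold changes below 0 in P. leucopus, with a median of -0.19, whereas in P. maniculatus 8 of 17 were above 0 and the median was 0.00. Genes of the mitochondrial ribosome, which makes the subunits encoded in mitochondrial DNA, had a median of -0.07 with 59 of 77 below 0 in P. leucopus and of 0.24 with 67 of 71 above 0 in P. maniculatus. The cytosolic ribosomal protein genes did not share the opposite directions: 67 of 71 were above 0 in P. leucopus with a median of 0.21, and 31 of 31 in P. maniculatus with a median of 0.35. None of these genes passed the adjusted threshold in edgeR. At an unadjusted p under 0.05 the citric acid cycle had 7 and 1 genes, the mitochondrial ribosome 3 and 18 and the cytosolic ribosome 8 and 27, in P. leucopus and P. maniculatus. Of all genes tested, 18.7% in P. leucopus and 10.3% in P. maniculatus were at that level in either direction. The subunit genes were at 10% and 11.9%. In P. leucopus the mitochondrial (3.9%) and cytosolic ribosome (11.3%) also lay below all genes, and the citric acid cycle (38.9%) above. In P. maniculatus the mitochondrial (25.4%) and cytosolic ribosome (87.1%) lay above all genes, and the citric acid cycle (5.88%) below.

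Assembly factors build the complexes without being part of them. In P. leucopus 20 of 27 had values below 0, with a median of -0.09, and in P. maniculatus 29 of 48 were above 0, with a median of 0.08. The factor with the lowest p in P. leucopus was ATPAF1, which helps to assemble the head of the ATP synthase, at -0.61 ± 0.12 (edgeR adjusted p = 0.101). In P. maniculatus it was PET100, a factor for complex IV, at 0.52 ± 0.17 (edgeR adjusted p = 0.467). Regulators of mitochondrial biogenesis had medians of 0.07 over 22 genes in P. leucopus and -0.01 over 20 genes in P. maniculatus. The lowest p among them belonged to YY1, a transcription factor, at 0.28 ± 0.12 in P. leucopus (edgeR adjusted p = 0.221) and to GABPB1, a subunit of the factor that binds many promoters of subunit genes, at -0.46 ± 0.17 in P. maniculatus (edgeR adjusted p = 0.467). None of either list passed the adjusted threshold.

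Several subunits exist as paralogs used in different tissues. In the COX pairs that could be compared, all in P. maniculatus, the brain libraries held mainly the ubiquitous form. No ratio was taken for COX6A2 and COX7A1, whose partners COX6A1 and COX7A2 were not among the genes analysed. Per kilobase, COX4I2, the isoform known from lung, was 0.378% to 0.792% of COX4I1 in young and 0.378% to 0.577% in old P. maniculatus. COX6B2, the testis isoform, was 0.108% to 0.305% of COX6B1 in young and 0.141% to 0.317% in old animals. COX8B, of heart and skeletal muscle, was 0.0660% to 0.295% of COX8A in young and 0.103% to 0.286% in old animals. The muscle isoform COX6A2 had 0.495 ± 0.188 CPM in young and 0.785 ± 0.564 CPM in old P. maniculatus (SD, n = 6). The 7 markers of skeletal muscle summed to 10.4 to 24.6 CPM in young and 13.5 to 21.3 CPM in old animals, with CKM, the muscle creatine kinase, at 0 to 1.55 CPM. The 4 heart markers summed to 8.27 to 49.6 CPM in young and 23.97 to 73.4 CPM in old animals, with TNNT2 at 6.40 to 62.4 CPM and the atrial gene MYL7 at 0 to 0.469 CPM. Their part in the muscle isoforms was not tested.

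NDUFA4L2, a paralog of NDUFA4 known to respond to low oxygen, was 0.456% to 1.35% of NDUFA4 per kilobase in young and 0.270% to 0.690% in old P. leucopus. Its level was 2.79, 5.24 and 8.86 CPM in young and 2.63, 3.45 and 4.97 CPM in old animals, a log2 fold change of -0.54 ± 0.27 (edgeR adjusted p = 0.297), the lowest of all subunit genes of that species. In P. maniculatus the ratio was 0.601% to 1.34% in young and 0.433% to 1.27% in old animals, and the log2 fold change of NDUFA4L2 was 0.39 ± 0.33 (edgeR adjusted p = 0.596). The age groups overlapped in each of these ratios.

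The study summarised how far a gene keeps its correlations with the transcriptome between ages as Pc. For each gene, Pearson's R with all genes was taken over the 6 young animals and again over the 6 old ones, and Pc is the correlation between both sets of R values, so that a value near 1 means a retained pattern and a negative value an inverted one. The median Pc of the subunit genes was 0.264 ± 0.0816 (jackknife SE over 12 animals) in P. leucopus and 0.413 ± 0.175 for those of P. maniculatus, beside 0.150 ± 0.0404 and 0.160 ± 0.0602 over all 19718 and 15262 genes with a Pc. Other genes at or above the 10th percentile of the subunit genes in mean CPM had a median of 0.234 ± 0.0592 in P. leucopus (4147 genes). It lay less than either error from that of the subunit genes, but both rest on the same animals. The error of the difference was not computed. In P. maniculatus the median was 0.199 ± 0.0723 (10406 genes). There, COX isoforms at low levels, such as COX7A1 at 2.33 CPM, lowered the cutoff, so the match in level is looser. None of the 60 and 64 subunit genes had a negative Pc, where 27.5% and 23.3% of all genes did, and 17.05% and 17.2% of the other genes at or above that level. Negative values were also rare in the cytosolic ribosomal protein genes, at 1.37% in P. leucopus and 0% in P. maniculatus. They made up 9.09% and 5.63% of the mitochondrial ribosome and 11.1% and 5.88% of the citric acid cycle. With genes averaging under 1 CPM left out, the medians were 0.326 for the subunit genes and 0.228 for all genes in P. leucopus, and 0.471 and 0.206 in P. maniculatus. The subunit genes are correlated with each other, so their Pc values are not independent of one another.

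**Figure D5:**
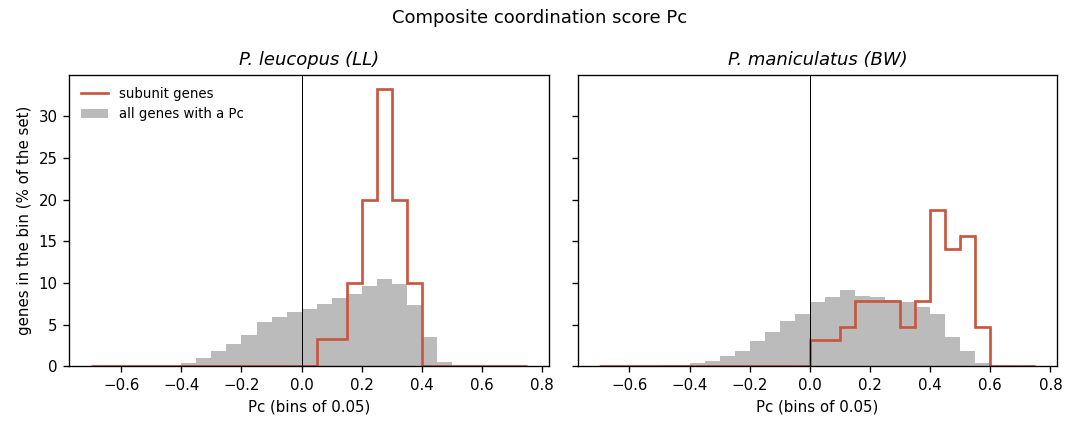
Distribution of Pc in bins of 0.05, as percent of the set, for the subunit genes (red line) and all genes with a Pc (grey) in P. leucopus (left) and P. maniculatus (right). No subunit gene lies below 0 in either species, and the median is 0.264 in P. leucopus and 0.413 in P. maniculatus.

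By complex, the median Pc in P. leucopus was 0.257 ± 0.0748 for complex I, 0.324 ± 0.0847 for complex II and 0.267 ± 0.113 for complex V. In P. maniculatus it was 0.437 ± 0.172 for complex I, 0.264 ± 0.237 for complex II, 0.314 ± 0.175 for complex III, 0.358 ± 0.191 for complex IV and 0.472 ± 0.161 for complex V. Within a species, these medians rest on the same animals, so their errors are not independent, and no difference between complexes was tested. In P. maniculatus the highest Pc of a subunit gene was that of NDUFA1, an X-linked accessory subunit, at 0.568 ± 0.162, rank 22 from the top of the species, and in P. leucopus that of ATP5F1D, the delta subunit, at 0.388 ± 0.148, rank 1058. The cytosolic ribosomal protein genes had median Pc values of 0.329 ± 0.0877 and 0.461 ± 0.218, and the citric acid cycle of 0.188 ± 0.122 and 0.221 ± 0.125. Those of the mitochondrial ribosome were 0.245 ± 0.0805 and 0.348 ± 0.157. Without old animal 1 the median of the subunit genes in P. maniculatus was 0.240 and 12.5% were negative, and without young animal 2 of P. leucopus 5% were negative.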

How the data were processed

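Reads of both species were, per the labels, checked with FastQC 0.11.5, trimmed with Trim Galore 0.4.5, aligned with STAR 2.7.2b and handled with SAMtools 1.5. The authors counted read pairs on genes with featureCounts of Subread 1.5.3 without regard to strand, dividing reads with several positions or overlapping genes, and deposited these estimated counts per gene without normalization. The genome and annotation were Pero_0.1 with RefSeq genes for P. leucopus and HU_Pman_2.1 with Ensembl genes, counted by name, for P. maniculatus. Reads shared between genes left 32 of 60 and 25 of 64 subunit genes with a fractional count in at least 1 library, so that close copies and overlapping genes may share counts. In P. maniculatus 91.1% of gene lengths were multiples of 3, against 40.5% in P. leucopus, so lengths there are mostly coding length. The row of unnamed genes of P. maniculatus held 11.8% to 14.6% of the counts per library and was left out of totals and tests.

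Counts were rounded and tested with edgeR 4.0.16 under R 4.3.3 (filterByExpr, TMM, quasi-likelihood test, Benjamini-Hochberg over all genes tested, threshold 0.05), after a test on simulated data. SE is the absolute log2 fold change divided by the square root of F. Groups were stock and age from the labels, and animal numbers follow the order of the samples. The labels do not say whether RNA was prepared in batches. The edgeR p-values set a difference against the spread between these animals, estimated with information shared across genes. They count the near-identical libraries of old P. maniculatus as separate animals, except where these were summed or left out. CPM, shares, ratios per kilobase and Pc were computed with Python 3.11.15, NumPy 2.4.6, SciPy 1.17.1 and pandas. Pc used CPM and Pearson's R, with a delete-one jackknife. The total count sets the precision: genes near 1 CPM rest on few reads.

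The genes named were those past the threshold (none), the highest and lowest fold change and the highest CPM per kb of each complex, paralogous pairs, and the assembly factor and regulator with the lowest p. Other names, such as NDUFA1, ATP5F1D, COX7C and ATP5MC1, were chosen after their values were seen. The members and lists were chosen with earlier results of these data known. Alternatives were RLE size factors, library totals, all genes with at least 1 count, DESeq2 1.42.0, an exact permutation test of log2(CPM + 1), other forms of Pc, the near-identical libraries summed, the unnamed row kept and each animal left out. Leaving out libraries by their markers, leaving out both near-identical libraries, and the bins of length were added after seeing the data.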

Additional observations from a re-analysis of the deposited data

Results flagged for a closer look

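Across 96 groups of 6 animals tested for a single distant value, 3 were found, and chance marks about 1 in 20 such groups. All 3 belong to old P. maniculatus 3, one of the near-identical libraries. Its COX8B level was 1.51 CPM, far above the other old animals of that species. Its log2 ratio of COX8B to COX8A per kilobase was -8.45, above the others, and its log2 ratio of COX4I2 to COX4I1 was -8.05, below the others. Both COX8B and COX4I2 rest on few reads per library.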

How the results depend on the processing

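The number of subunit genes past the adjusted threshold was 0 in both species under every alternative run. It was also 0 for the difference of the age effect under the alternatives run for it. These were RLE size factors, all genes with at least 1 count, the changes of libraries and each animal left out. The lowest adjusted p of edgeR was 0.0759, for P. leucopus without young animal 5, a fit in which 963 of 14958 genes passed. In P. leucopus the median log2 fold change was -0.18 to -0.04 with each animal left out and turned to 0.0633 without the 4 young libraries with high oligodendrocyte markers, where 10 genes were lower and 0 had an unadjusted p under 0.05. The same step turned NDUFB11 to 0.0311, NDUFB8 to 0.0154, SDHB to 0.126 and ATP5F1B to 0.00435. It leaves out the young libraries with the highest shares of the subunit genes, so it raises the values whatever their markers. NDUFB8 was 0.1096 without the old libraries with cerebellar markers and ran from -0.150 to 0.0302 with each animal left out, and NDUFA4 ran from -0.0318 to 0.162. Over the alternatives other than each animal left out, the highest values were -0.0121 for NDUFA4L2, -0.0226 for ATP5PB and -0.0304 for SDHA. The lowest values over the same alternatives were 0.126 for NDUFV3 and 0.212 for ATP5MC2. The cause was not tested.

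Counts at an unadjusted p under 0.05 were unstable. In the main fits 18.7% of all genes tested were at that level in P. leucopus, 10.3% in P. maniculatus and 15.1% for the difference of the age effect. That share was not computed for the alternatives, so the counts below do not tell subunit genes from all genes. In P. leucopus there were 6, and 3 by the exact permutation test, and 1 to 10 with each animal left out (1 without young animal 2, 2 without young 3 or 4 or old 1 or 5, 3 without old 6, 10 without young 6). In P. maniculatus there were 7, 2 with library totals, 4 by the exact permutation test, 1 with the near-identical libraries summed, 0 without both, and 1 to 26 with each animal left out (20 to 26 without young 2 or 5 or old 2 or 5, and 1 to 4 without young 1, 3, 4 or 6 or old 1, 3 or 4). For the difference of the age effect there were 12, then 5 with the near-identical libraries summed, 3 without both, 2 without the old libraries with cerebellar markers, 0 without the young libraries with high oligodendrocyte markers, and 4 to 21 with each animal left out. The share of subunit genes with negative Pc was 0% to 5% in P. leucopus and 0% to 12.5% in P. maniculatus with each animal left out. Medians of all genes moved by less than 0.1 between scalings. No paired analysis was possible because young and old were different animals, each with 1 library. Genes under 1 CPM are limited by depth.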
